A study of Mus musculus with 2 samples.

Results

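The macrophages of colitis-associated colon tumors (CACs) of mice were described from single-cell RNA sequencing of 2 libraries. They were taken as every cell that the deposited annotation calls MAC, which gave 4809 of 38883 cells, and the other 10 annotated types served for comparison. The library Mir34a_F/F came from littermates with the floxed *Mir34a* alleles that served as proficient controls, and held 2208 macrophages among 20312 cells. The library Mir34a_Mye_KO came from mice in which LysM-Cre, a recombinase driven by the *Lyz2* locus and active in macrophages and granulocytes, was used to delete the same floxed alleles, and held 2601 macrophages among 18571 cells. All mice had a C57Bl/6 background, were 6 to 10 weeks old at the start, and received the mutagen azoxymethane (10 mg/kg) before the first and second of 3 cycles of the colitis-inducing polymer dextran sodium sulfate (2.5% in the first and second, 2% in the last). They were killed on day 110. Each library pooled 6 to 8 tumors from 3 female mice, so there was 1 library per genotype and no replicate.

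Every value below is therefore given without a test between genotypes. The 95% intervals of UMI sums and log2 ratios cover the counting of molecules alone, not the spread between cells or mice. Those of shares of macrophages cover the counting of cells alone, not the spread between mice. The annotation was built from these same cells, so the lead of macrophages over another type is a description as well. A level is the mean, over the cells of a type, of unique molecular identifiers (UMIs, each marking 1 captured mRNA molecule) per 10000 UMIs of the cell. A log2 ratio is the log2 of the level in Mir34a_Mye_KO over that in Mir34a_F/F. Macrophages carried a median of 7252 UMIs and 2556 genes per cell in Mir34a_F/F, and 11227 UMIs and 3185 genes in Mir34a_Mye_KO. Their median mitochondrial share was 2.01% and 3.75%, and it reached 25% in 30 and 90 of them. The libraries shared 96 barcode sequences over all cells and 4 over macrophages.

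Macrophages are phagocytes that arise from blood monocytes or from precursors laid down before birth, and depend on signals through the receptor encoded by *Csf1r*. In the colon they take up dying cells and microbes, digest them in lysosomes, present peptides on MHC class II and produce the C1q proteins that start the classical complement pathway. The transcription factor PU.1 and members of the C/EBP and AP-1 families are known regulators of macrophage genes. In tumors macrophages are known to range from monocyte-like cells to cells rich in *Mrc1*, *Arg1* or *Spp1*.

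Promoters are shown for 4 of the 15 genes in which macrophages led all other types by the largest margins, *C1qb*, *C1qc*, *Ms4a7* and *Pf4*. The 250 bases before each transcription start, 5′ to 3′ in the direction of the gene, were taken from RefSeq on GRCm38.p6. Capitals mark the core motif of PU.1, GAGGAA, or its reverse complement TTCCTC.
C1qb, chr4:136886201-136886450, minus strand: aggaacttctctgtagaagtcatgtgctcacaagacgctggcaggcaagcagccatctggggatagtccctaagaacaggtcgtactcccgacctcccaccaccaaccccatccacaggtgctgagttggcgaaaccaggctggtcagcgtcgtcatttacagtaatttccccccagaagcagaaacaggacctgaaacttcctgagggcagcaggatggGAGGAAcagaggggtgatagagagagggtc
C1qc, chr4:136892915-136893164, minus strand: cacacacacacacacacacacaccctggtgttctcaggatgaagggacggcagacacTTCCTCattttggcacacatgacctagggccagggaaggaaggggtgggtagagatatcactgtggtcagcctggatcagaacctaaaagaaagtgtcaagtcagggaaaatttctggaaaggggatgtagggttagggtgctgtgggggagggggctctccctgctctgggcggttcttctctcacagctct
Ms4a7, chr19:11336147-11336396, minus strand: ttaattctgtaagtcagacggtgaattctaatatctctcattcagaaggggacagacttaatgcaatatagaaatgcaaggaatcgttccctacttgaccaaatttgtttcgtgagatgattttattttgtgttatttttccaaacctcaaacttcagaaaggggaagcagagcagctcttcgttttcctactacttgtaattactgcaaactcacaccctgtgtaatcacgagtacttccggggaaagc
Pf4, chr5:90772185-90772434, plus strand: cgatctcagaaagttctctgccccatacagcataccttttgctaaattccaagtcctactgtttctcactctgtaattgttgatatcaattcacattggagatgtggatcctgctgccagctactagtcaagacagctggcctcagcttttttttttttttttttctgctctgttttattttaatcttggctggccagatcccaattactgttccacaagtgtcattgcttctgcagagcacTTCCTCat
The core was present in 3 of these 4 windows, while the window of *Ms4a7* held none. It first began 30 bases before the RefSeq start in *C1qb*, 193 in *C1qc* and 8 in *Pf4*. The annotation used below for gene positions starts *C1qc* at chr4:136893065, inside its window. By that start, part of the *C1qc* window lies within the gene and the core lies nearer to the start. The microRNA whose gene the cross was made to delete is shown with its seed, bases 2 to 8, in capitals, since base pairing of the seed selects its target mRNAs.
mmu-miR-34a-5p, chr4:150068473-150068494, plus strand: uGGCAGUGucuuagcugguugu

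The deletion was looked at first. The feature mir34apri, named for the primary transcript, had 133 UMIs (95% interval, 111 to 158) in macrophages of Mir34a_F/F and 462 (421 to 506) in macrophages of Mir34a_Mye_KO, at levels of 0.0723 and 0.111. The feature was thus not lower in the library labelled Mir34a_Mye_KO. The sequence that the feature covers is not stated, and a 3′ tag outside the deleted part checks nothing. A second added feature, crenlslyz2, had 451 and 172 UMIs (levels of 0.164 and 0.0490), and *Lyz2*, lysozyme, had 3892 and 1379 UMIs (1.44 and 0.371). Cre stands in the *Lyz2* locus, so both may share reads and are uncertain. *Lyz2* was also lower in T cells (log2 ratio of -1.50) and neutrophils (-1.67). Mir34a_F/F and Mir34a_Mye_KO below stand for the libraries so labelled, and each direction rests on those labels.

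The 4 marker genes fixed for macrophages were all highest in them in both libraries. *Csf1r*, the receptor for colony-stimulating factor 1, had a level of 5.012 in macrophages of Mir34a_F/F and 5.675 in those of Mir34a_Mye_KO. Its next level was 0.673 in fibroblasts and 0.801 in dendritic cells. *C1qa*, a chain of C1q, stood at 13.2 and 16.2, *Ms4a7*, a membrane protein of mature macrophages, at 3.83 and 4.29, and *Adgre1*, the F4/80 antigen, at 1.42 and 1.89. Macrophages held 82.8% and 87.2% of all *Csf1r* UMIs of their libraries, although they were 10.9% and 14.0% of the cells. Not every cell carried the markers. Fewer than 2 of the 4 genes had a UMI in 716 macrophages (32.4%) of Mir34a_F/F and 497 (19.1%) of Mir34a_Mye_KO. These cells were shallower, with medians of 4273 and 3952 UMIs against 9603 and 13652 in the rest. The part of depth in the marker count was not tested.

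The cells with fewer than 2 markers also differed from the rest in levels, which are scaled to each cell's UMIs. *Plac8*, a gene of blood monocytes, stood at 23.0 and 11.9 in them against 9.36 and 7.81 in the rest, and *Ly6c2*, a surface antigen of inflammatory monocytes, at 2.07 and 1.51 against 0.905 and 0.960. *Apoe*, the lipid carrier apolipoprotein E, went the other way, at 19.2 and 23.5 against 168 and 122. *H2-Aa*, an MHC class II chain, stood at 6.08 and 9.06 against 21.7 and 31.3. Monocyte genes were thus higher, and *Apoe* and *H2-Aa* lower, in the cells with fewer markers in both libraries. Epithelial and antibody transcripts were higher there too. The keratin *Krt8* stood at 9.91 and 7.40 against 6.54 and 4.86, the epithelial adhesion gene *Epcam* at 4.03 and 3.64 against 2.77 and 2.57, and the antibody light chain *Igkc* at 13.5 and 45.6 against 9.65 and 32.5. The T cell gene *Trbc2* (0.109 and 0.151 against 0.152 and 0.140) and the neutrophil gene *S100a8* (5.34 and 3.64 against 4.32 and 4.28) differed in opposite directions in the libraries. The median mitochondrial share of these cells was 2.31% and 5.24% against 1.90% and 3.54%. The part of these in the differences was not tested.

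Marker transcripts of the other types were also found in macrophages, those of epithelial cells at the largest share of their own type. The summed T cell markers reached 7.08% and 6.75% of their level in T cells, those of dendritic cells 4.27% and 4.84% of their own type, those of neutrophils 0.785% and 1.07% and those of mast cells 0.903% and 1.25%. The sum of B and plasma cell markers was 1.73 and 6.03, a log2 ratio of Mir34a_Mye_KO over Mir34a_F/F of 1.80, and that ratio was 1.17 in T cells. The mast cell sum was 5.42 and 8.06 (0.57), and the neutrophil sum 12.8 and 11.7 (-0.14). The endothelial list stood at 3.52% and 2.95% and the fibroblast list at 0.0720% and 0.108%. Epithelial markers stood at 27.0% and 29.7% of their level in epithelial cells. Their sum was 29.6 and 24.1 in macrophages and 38.2 and 22.5 in T cells. Hemoglobin and other erythroid markers summed to 2.57 in Mir34a_F/F and 0.09 in Mir34a_Mye_KO, a log2 ratio of -4.84 that was met by -4.63 in T cells. Red blood cells were lysed when the tumors were dissociated. The part of free RNA in these values was not tested.

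In 90 of 8275 genes (1.09% of those with a level of at least 0.1 in both libraries), the macrophage level was at least 2-fold above that of every other type in both libraries. In 475 (5.74%) it was the highest by any margin. Of the 90 genes, 84 are annotated as protein coding. The type with the next level varied. It was dendritic cells for 18 of the 90 in Mir34a_F/F and 21 in Mir34a_Mye_KO, fibroblasts for 20 and 14, endothelial cells for 13 and 20, erythroid cells for 12 and 15, and neutrophils for 10 and 15. Some of these types were small, with 106 and 30 erythroid cells and 57 and 60 fibroblasts. Against the 7 other types with at least 100 cells in each library, the count was 153. Against all other cells pooled it was 979. At the edge of the 2-fold rule, *Gatm* (2.00 and 2.17-fold) and *Aif1* (2.02 and 2.23-fold) were just inside, and *Trf* (2.24 and 1.99-fold) and *Ms4a6c* (1.99 and 2.11-fold) just outside.

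Macrophages held a median of 77.4% and 80.4% of their library's UMIs of these 90 genes. The share ran from 33.6% and 49.4% for *Lamp1*, a lysosomal membrane protein made by most cells, to 90.3% and 91.2% for *H2-M2*, a nonclassical MHC class I gene. It was at least 50% for 79 of 90 genes in Mir34a_F/F and 89 of 90 in Mir34a_Mye_KO. The large macrophage share for *H2-M2* rested on a level of only 0.690 and 0.917, against 0.0777 in endothelial cells and 0.0827 in dendritic cells. The study's text names 5 of the 90 genes.

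*Ms4a7* had the largest margin in the weaker library among genes with a level of at least 0.5, 14.9-fold over erythroid cells in Mir34a_F/F and 9.54-fold over endothelial cells in Mir34a_Mye_KO. *C1qb* followed, with levels of 10.4 and 12.6 and margins of 11.4 and 8.92-fold. The third C1q chain, *C1qc*, stood at 8.99 and 10.2, with margins of 12.5 and 5.45-fold. All C1q chains had their smaller margin in Mir34a_Mye_KO, where erythroid cells came next on 30 cells.

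**Figure D1:**
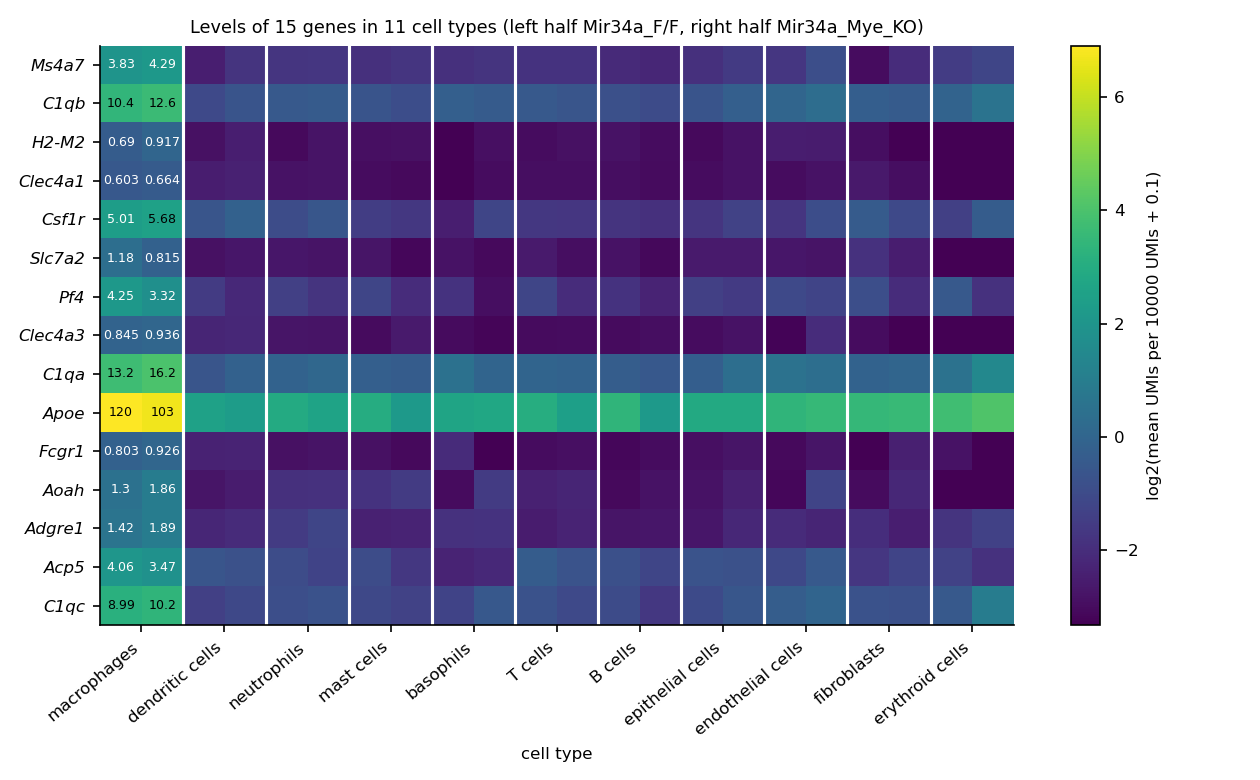
Levels of the 15 genes with the largest margins in 11 cell types, as log2 of the mean UMIs per 10000 UMIs plus a pseudocount of 0.1, with the macrophage levels printed. For each type the left column is Mir34a_F/F and the right column Mir34a_Mye_KO, and *Apoe* reaches 120 and 103 in macrophages while *Clec4a1* reaches 0.603 and 0.664.

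Several of the 15 genes encode receptors that sense or clear targets. The lectin receptors *Clec4a1* (0.603 and 0.664) and *Clec4a3* (0.845 and 0.936) were 7.70 and 7.10-fold and 7.91 and 6.49-fold above the next type. *Fcgr1*, the high-affinity receptor for IgG, stood at 0.803 and 0.926 and was 5.84 and 8.87-fold above the next type. *Slc7a2*, a transporter of arginine, stood at 1.18 and 0.815 with fibroblasts next at 0.173 and 0.0770. Enzymes were *Aoah* (1.30 and 1.86), which inactivates bacterial lipopolysaccharide, and *Acp5* (4.06 and 3.47), tartrate-resistant acid phosphatase. *Acp5* also had UMIs elsewhere, since macrophages held 62.6% and 67.6% of them. *Pf4*, platelet factor 4, a chemokine best known from platelets, stood at 4.25 and 3.32, and macrophages held 83.2% and 86.6% of its UMIs.

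*Apoe* stood at 120 (313264 UMIs) and 103 (434651 UMIs). It was 8.89 and 6.11-fold above erythroid cells, which stood at 13.5 and 16.9. Leaving out the genes that the study names, *Mmp12*, macrophage elastase, and *Trem2*, a lipid-sensing receptor, completed the 15. *Mmp12* stood at 8.25 and 4.74 with 5.98 and 5.13-fold margins, and *Trem2* at 1.15 and 0.876 with 4.84 and 7.42-fold margins.

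**Figure D2:**
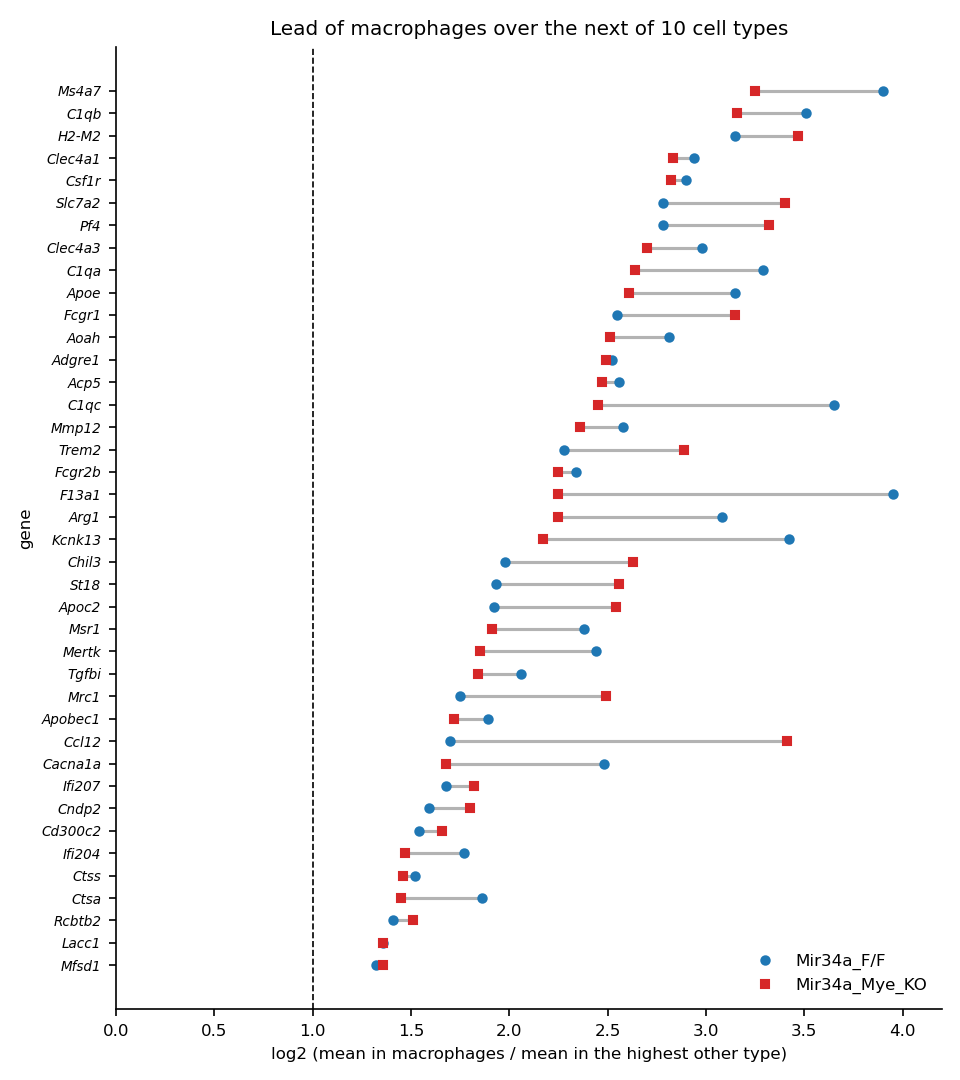
Lead of macrophages, as log2 of the macrophage mean over the mean of the highest of the other 10 types, for the 40 genes with the largest smaller margin among those shown here with a level of at least 0.5 in both libraries. Circles are Mir34a_F/F, squares Mir34a_Mye_KO and the dashed line marks 2-fold. *F13a1* (15.5 and 4.77-fold) and *Ccl12* (3.24 and 10.6-fold) have margins that differ widely between libraries.

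Of the 90 genes, 19 lay within 100 kb of another of them, in 9 clusters (mm10). The C1q genes sit side by side (chr4:136880129-136898803). *Ms4a7* and *Ms4a4a* (chr19:11321039-11392790), *Clec4a1* and *Clec4a3* (chr6:122921848-122969875), *Apoc2* and *Apoe* (chr7:19671579-19699188), *Ccl12* and *Ccl8* (chr11:82101845-82116799), and *Fcgr2b* and *Fcgr4* (chr1:170958617-171029761) are pairs within gene families. *Ifi207* and *Ifi204* (chr1:173723427-173766943) belong to the interferon-inducible p200 family. *Cd68* and *Tnfsf13* (chr11:69664213-69685784), of unrelated families, are a further pair within that distance. Neighbouring copies within a family can share reads, so the split of UMIs between *Ifi207* and *Ifi204* and between *Clec4a1* and *Clec4a3* is uncertain.

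A promoter was listed for 69 of the 90 genes. The PU.1 core GAGGAA, on either strand of the 250 upstream bases, was in 24 of 69 (34.8%), against 1549 of 6596 promoters of all tested genes (23.5%). The longer form GAGGAAG, which contains the core, was in 15.9% against 11.4%. The AP-1 motif TGAGTCA was in 5.80% against 3.17%, and a C/EBP form TTGCNNAA in 13% against 7.55%. Among 374 promoters of genes highest in macrophages by any margin, the core was in 100 (26.7%) and the longer form in 15.8%. The AP-1 motif was in 4.01% of them and the C/EBP form in 8.56%. These shares describe letters in a window and not binding.

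Transcription factors of the myeloid lineage were mostly shared with other types. All 20 listed factors reached a level of 0.1, 5 were highest in macrophages in both libraries, and 3 were led by them. The shares over all tested genes were 5.74% and 1.09%. *Tfec*, a relative of MITF, stood at 0.504 and 0.596, with margins of 5.63 and 2.13-fold. *Spic*, which drives the red pulp program of heme-recycling macrophages, stood at 0.101 and 0.265, with margins of 12.8 and 10.3-fold. *Spi1*, the gene of PU.1, stood at 2.02 and 2.26, which was 0.835 and 0.769 of the neutrophil level. *Zeb2* stood at 14.0 and 16.2 with basophils (1.09-fold) and neutrophils (1.01-fold) next.

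By count, the lysosome list had the most genes led by macrophages, and it was also the longest list. Of 25 genes, 18 were highest in macrophages in both libraries and 8 were led by them. Over all tested genes these shares were 5.74% and 1.09%. Macrophages also led 4 of 12 Fc receptors and adaptors. They led all 4 identity genes too, which are the markers fixed for macrophages, so that lead is no separate result. The proteases *Ctss* (14.97 and 14.8) and *Ctsb* (14.7 and 14.2) were 2.87 and 2.75-fold and 3.47 and 2.49-fold above the next type, and *Lgmn*, legumain, stood at 5.67 and 6.64. *Psap*, the precursor of sphingolipid activators, stood at 19.8 and 18.7 but with margins of 2.08 and 1.47-fold. *Cd63*, a tetraspanin of lysosomes and granules, was higher in mast cells (0.344 and 0.285 of their level). Among 12 Fc receptors and adaptors, macrophages led *Fcgr1*, *Fcgr2b* (2.49 and 2.63), *Fcgr4* (1.17 and 1.33) and *Sirpa* (2.04 and 2.35), whose product binds CD47. The adaptors *Tyrobp* (14.2 and 11.6) and *Fcer1g* (15.1 and 13.2), which carry signals of such receptors, were not led by macrophages, at 0.734 and 0.655 of the neutrophil level and 1.22 and 1.08-fold over basophils.

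Of 16 clearance receptors and bridging proteins with a level of at least 0.1, macrophages led 5, among them *Trem2*, beside 1.09% of all tested genes. *Mrc1*, the mannose receptor, stood at 1.79 and 2.88, *Msr1*, a scavenger receptor for modified lipoproteins, at 2.48 and 2.31, *Mertk*, which binds dying cells through bridging proteins, at 1.14 and 1.12, and *Clec4n*, a receptor for fungal sugars, at 5.35 and 4.08. Some genes known from resident macrophages had few UMIs. *Cd163*, the receptor for hemoglobin bound to haptoglobin, stood at 0.00455 and 0.00607, *Timd4* at 0.0342 and 0.0107, *Vsig4* at 0.00190 and 0.00538, and *Siglec1* at 0.0498 and 0.0432, all under the minimum of 0.1. *Axl*, a relative of *Mertk*, stood at 1.16 and 1.51 and was 0.598 and 1.01-fold of the fibroblast level.

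Apart from *Kcnk13*, the following genes led by macrophages are better known from other tissues, and all were chosen after their values were seen. *Cacna1a*, a neuronal calcium channel subunit, stood at 0.869 and 1.19, with margins of 5.57 and 3.21-fold. *Kcnk13*, a potassium channel, stood at 0.546 and 0.582, with margins of 10.7 and 4.49-fold. *St18*, a zinc finger factor of the nervous system and pancreas, stood at 0.979 and 1.03 and *C6*, a component of the membrane attack complex usually made by liver, at 0.297 and 0.576. *Piwil2*, of the germline piRNA pathway, stood at 0.181 and 0.176, and *Dpys*, a pyrimidine-degrading liver enzyme, at 0.218 and 0.166. Macrophages held 86.1% and 91.1% of the *C6* UMIs of their libraries and 53.8% and 63.0% of those of *Piwil2*.

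Over all genes macrophages were closest to dendritic cells. The correlation of log2 levels across 14138 genes was 0.92 and 0.93 with dendritic cells, 0.90 and 0.88 with neutrophils, 0.87 and 0.85 with T cells and 0.75 and 0.74 with fibroblasts. Macrophages of the libraries correlated with each other at 0.99. These values are across genes, which are not independent, and types of a library share its free RNA.

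Between the libraries, macrophages were alike in most genes. Of 8875 genes with a level of at least 0.1 in a library, 35 (0.394%) were at least 2-fold higher in Mir34a_Mye_KO and 63 (0.710%) at least 2-fold lower, and the median log2 ratio was -0.06. With cell totals that leave out immunoglobulin, mitochondrial and ribosomal RNA-like genes, the counts were 54 and 45, and the median 0.05. With every cell thinned to 1000 UMIs they were 83 and 153. Of the 35, 15 belonged to the class of immunoglobulin, mitochondrial and ribosomal RNA-like genes, and 15 were also at least 2-fold higher in T cells. The 15 include *Cdk8*, a kinase of the Mediator complex, and *Lars2*, the mitochondrial leucyl-tRNA synthetase, both protein-coding genes that were placed in it by choice and are named here after their values were seen. *Cdk8* went from 3.18 to 7.50 (log2 ratio of 1.24, 1.17 to 1.30) and was also higher in T cells (0.78), neutrophils (0.97) and epithelial cells (0.98). *Lars2* went from 3.92 to 10.0 (1.36, 1.30 to 1.41), with 0.92 in T cells. Of the 63, 30 were also at least 2-fold lower in T cells. The level was highest in macrophages in both libraries in 2 of the 35. They were *Spic* and *Gbp2b*, an interferon-inducible GTPase (0.0537 and 0.155, log2 ratio of 1.53, 2.33 in T cells). Of the 63 there were 9, *Arg1*, *Ccdc162*, *Dmkn*, *Ly6i*, *Lyz2*, *Msantd3*, *Mt1*, *Spp1* and crenlslyz2. Among all genes with a level of at least 0.1 in both libraries the share was 5.74%.

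**Figure D3:**
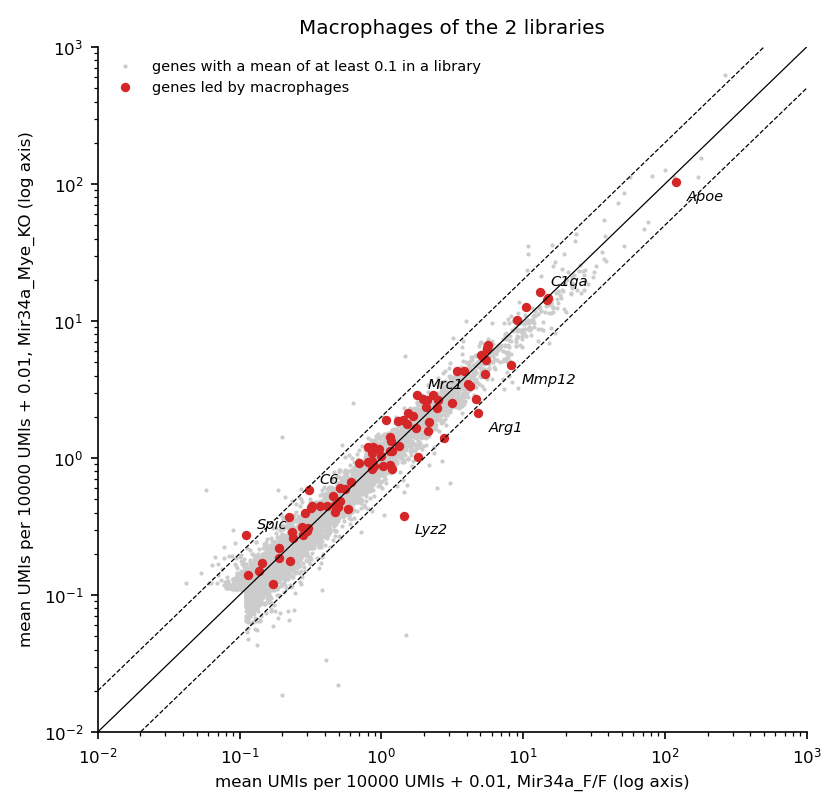
Macrophage level in Mir34a_Mye_KO against that in Mir34a_F/F, both as mean UMIs per 10000 UMIs plus 0.01 on log axes, for 8875 genes (grey) and the 90 genes led by macrophages (red). The solid line marks equal levels and the dashed lines 2-fold. Most red points lie between the dashed lines, with *Lyz2* and *Arg1* below and *Spic* above.

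The 90 genes led by macrophages had a median log2 ratio of 0.14 beside -0.06 over all genes. The ratio was above 0 in 53 of 90, beside 41.1% of all 8875 genes, and 58.9% of all genes were below 0, against which the counts of lower genes below are to be read. In the 90 led genes the interval was above 0 in 46, beside 16.1% of all genes, and below 0 in 24, beside 28.3%, and it is narrower the more UMIs a gene has. *Spic* alone was at least 2-fold higher, from 179 UMIs (0.101) to 1260 UMIs (0.265), a log2 ratio of 1.39 (95% interval, 1.05 to 1.72). With cells thinned to 1000 UMIs, a minimum of 0.5 or a pseudocount of 0.1, no led gene was at least 2-fold higher. The ratio of *Spic* was 1.92 in T cells and 3.48 in neutrophils, where the gene was rare. Besides *Lyz2* at -1.96, *Arg1*, arginase 1, was at least 2-fold lower, from 4.80 to 2.13 (log2 ratio of -1.17, -1.23 to -1.12). Cre stands in the *Lyz2* locus of the cross, and the part of that insertion in the *Lyz2* ratio was not tested.

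Among led genes with a level of at least 0.5 and a UMI in at least 25% of macrophages, *Mrc1* had the largest positive ratio, from 1.79 to 2.88 (0.69, 0.61 to 0.76). The ratio of *Mrc1* was 0.72 in dendritic cells, 0.00 in T cells and -0.36 in neutrophils, and endothelial cells, next in level, stood at 0.532 and 0.510. *Aoah* followed from 1.30 to 1.86 (0.51, 0.43 to 0.60), *Cacna1a* from 0.869 to 1.19 (0.46), *Itga9*, an integrin chain, from 1.97 to 2.67 (0.44) and *Adgre1* from 1.42 to 1.89 (0.41, 0.33 to 0.50). *Rcbtb2* (0.35), *Ifi207* (0.34), *Creb5* (0.32) and *Aif1* (0.31) were smaller. The ratios of *Itga9* and *Adgre1* in T cells, 0.55 and 0.46, were as large as in macrophages.

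Among the same led genes, those with a UMI in at least 25% of macrophages, *Lyz2* and *Arg1* had the lowest ratios, followed by genes of secreted products. *Apoc2*, an activator of lipoprotein lipase, went from 1.81 to 1.02 (-0.83, -0.92 to -0.74), *Mmp12* from 8.25 to 4.74 (-0.80, -0.84 to -0.76), and *Inhba*, the activin A subunit, from 4.61 to 2.68 (-0.78, -0.84 to -0.73). *Slc7a2* (-0.54), *Tnfsf13*, the cytokine APRIL (-0.46), *Ms4a6d* (-0.43), *Clec4n* (-0.39) and *Trem2* (-0.39) followed. The ratio of *Arg1* was -1.01 in T cells, -1.19 in dendritic cells and -0.92 in neutrophils, and that of *Mmp12* was -0.89 in T cells. *Inhba* was at -0.69 in T cells but 0.40 in neutrophils and 0.36 in dendritic cells. Also above 0 in dendritic cells were *Tnfsf13* (1.12), *Slc7a2* (0.57) and *Ms4a6d* (0.37). Below 0 there were *Lyz2* (-1.85), *Apoc2* (-2.06), *Mmp12* (-0.24), *Clec4n* (-0.09) and *Trem2* (-0.43).

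The C1q chains were slightly higher in Mir34a_Mye_KO over all macrophages, with log2 ratios of 0.30 for *C1qa*, 0.27 for *C1qb* and 0.18 for *C1qc*. Among macrophages with a UMI of at least 2 of the 4 markers these were 0.01, -0.01 and -0.10. *C1qa*, *Csf1r* and *Ms4a7* are themselves among the markers that selected those cells, so their ratios there (-0.09 for *Ms4a7*, 0.16 over all macrophages, and 0.15 for *Csf1r*) are a description. *Mrc1*, which is not a selecting marker, was at 0.48 in those cells, and *Apoe* went from -0.22 to -0.47.

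MHC class II genes differed together between the libraries. Of 10 members with a level of at least 0.1, 9 were higher and 1 lower in Mir34a_Mye_KO, with a median log2 ratio of 0.62. The chains *H2-Aa* (16.7 to 27.1), *H2-Ab1* (16.3 to 25.2) and *H2-Eb1* (13.3 to 21.2) had ratios of 0.70, 0.63 and 0.67. *Cd74*, the invariant chain, went from 47.0 to 72.1 (0.62), *Ciita*, the master regulator of these genes, from 0.182 to 0.288 (0.66) and *Cd86*, a ligand that costimulates T cells, from 3.72 to 5.76 (0.63). *Cd80*, the related ligand, was at 1.70 and 1.65 (-0.05, -0.13 to 0.04). Dendritic cells had higher levels of the chains in both libraries, and their ratios were 0.07 for *H2-Aa*, 0.08 for *H2-Ab1* and -0.09 for *H2-Eb1*, while that of *Cd86* was 0.59. *Cd86* had a ratio of 0.63 in T cells as well. *H2-Aa* also had a ratio of 0.72 in neutrophils and 0.29 in T cells. The level of *H2-Aa* was higher in Mir34a_Mye_KO among macrophages with at least 2 markers (21.7 and 31.3) and among the others (6.08 and 9.06). The summed dendritic cell markers in macrophages were 0.827 and 0.972, with *Flt3* at 0.0365 and 0.0595 and *Xcr1* at 0.0173 and 0.0225.

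Monocyte genes had the opposite sign. Of 16 genes, 15 were lower in Mir34a_Mye_KO, with a median of -0.39. *Plac8* went from 13.8 to 8.60 (-0.68), *Thbs1*, thrombospondin 1, from 20.0 to 11.6 (-0.78), *Chil3*, a chitinase-like protein, from 2.74 to 1.39 (-0.98) and *Ly6c2* from 1.28 to 1.07 (-0.27). *Ccr2*, the receptor that draws monocytes from blood, was the exception, from 0.875 to 1.26 (0.52). Among macrophages with at least 2 markers the median of the list was -0.01, and it was -0.09 when UMIs were summed over cells, which weights deep cells more. *Plac8*, *Chil3* and *Ly6c2* were higher in macrophages with fewer than 2 markers in both libraries, and the share of such cells was 32.4% in Mir34a_F/F and 19.1% in Mir34a_Mye_KO.

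**Figure D4:**
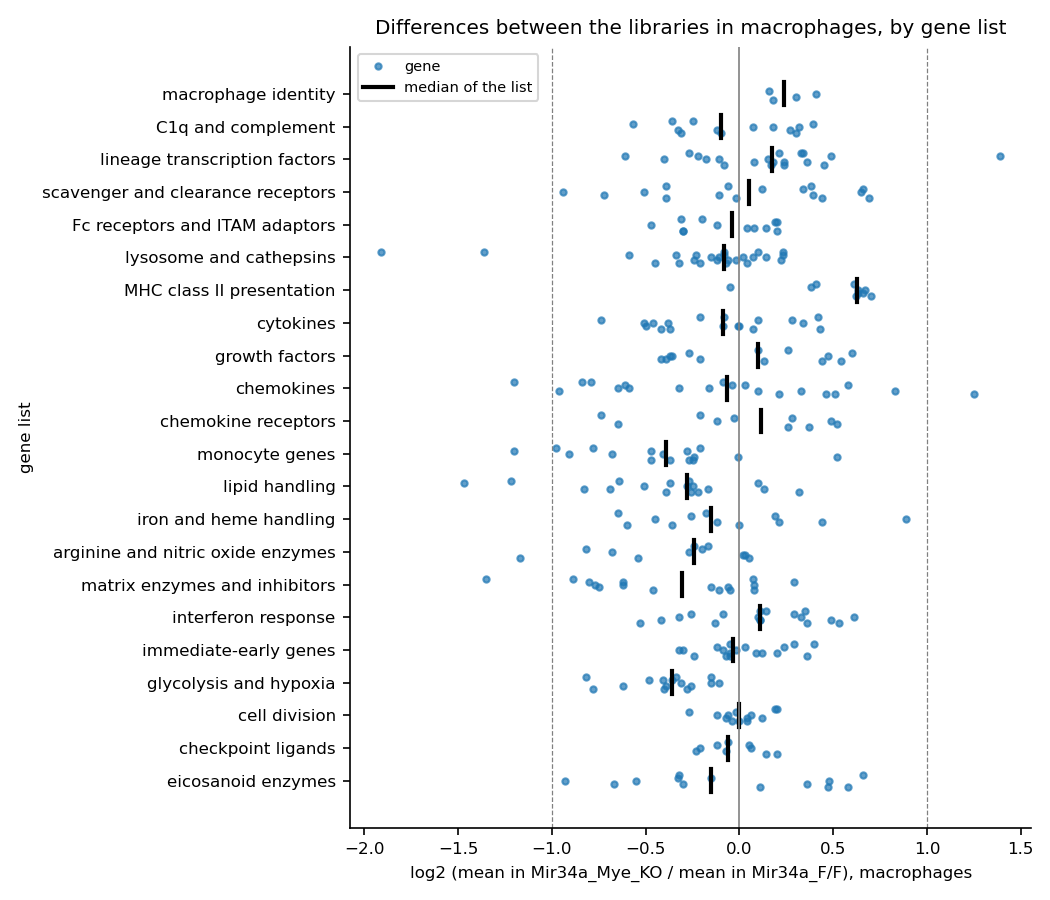
Log2 ratio of the macrophage level in Mir34a_Mye_KO over Mir34a_F/F for each gene with a level of at least 0.1 in a library, by gene list. Points are genes, black bars list medians and dashed lines 2-fold in either direction. The median of MHC class II presentation lies at 0.62, those of monocyte genes and of glycolysis and hypoxia at -0.39 and -0.36.

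Genes of lipid handling were lower in Mir34a_Mye_KO in 14 of 17 cases, with a median of -0.28. *Spp1*, osteopontin, went from 8.33 to 3.58 (-1.22, -1.26 to -1.18), *Cd9*, a tetraspanin, from 6.04 to 3.75 (-0.69), *Fabp5*, a fatty acid carrier, from 3.83 to 2.46 (-0.64) and *Lgals3*, galectin 3, from 11.2 to 8.63 (-0.37). *Spp1* was also lower in T cells (-1.31). Of the lysosomal genes, *Gpnmb* (1.43 to 0.555, -1.36) and *Atp6v0d2*, a proton pump subunit (0.370 to 0.0986, -1.91), were lower by more than 2-fold while the list's median was -0.08. The ratios of *Gpnmb* and *Atp6v0d2* in T cells were -1.47 and 0.23. *Mfge8*, a bridge between dying cells and phagocytes that was named after its value was seen, went from 3.05 to 0.647 (-2.24) and was at -1.77 in T cells.

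All 15 genes of glycolysis and hypoxia with a level of at least 0.1 were lower in Mir34a_Mye_KO, with a median of -0.36. The enzymes *Gapdh* (9.88 to 7.82, -0.34), *Pkm* (5.28 to 4.25, -0.31) and *Eno1* (1.85 to 1.20, -0.62) and the hypoxia targets *Bnip3* (0.752 to 0.426, -0.82) and *Egln3* (0.603 to 0.351, -0.78) were among them. *Ndrg1*, also a hypoxia target, had an interval that reached 0 (-0.11, -0.24 to 0.01). In T cells *Gapdh* was at -0.31 and *Eno1* at -0.16.

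Of 11 genes of arginine and nitric oxide metabolism, 8 were lower, with a median of -0.24. Besides *Arg1* and *Slc7a2*, *Ass1*, which rebuilds arginine from citrulline, went from 1.66 to 0.941 (-0.82) and *Nos2*, the inducible nitric oxide synthase, from 0.458 to 0.285 (-0.68). The *Nos2* level of macrophages was 0.397 and 0.257 of that of epithelial cells. Of 12 iron and heme genes, 8 were lower, with a median of -0.15. *Fth1*, the ferritin heavy chain, stood at 171 and 113 (-0.60) and *Hmox1*, which breaks down heme, at 3.58 and 2.79 (-0.36). *Cp*, ceruloplasmin, a ferroxidase, was higher at 0.541 and 1.002 (0.89, 0.77 to 1.01).

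Matrix genes were lower in 12 of 16 cases, beside 58.9% of all genes, with a median of -0.31 beside -0.06. The lowest ratio was that of the inhibitor *Timp1*, from 0.711 to 0.278 (-1.35). *Mmp9*, gelatinase B, went from 1.60 to 1.04 (-0.62). *Mmp13*, a collagenase, stood at 1.34 and 1.41 (0.07, -0.02 to 0.16) and *Mmp14*, which activates other metalloproteinases at the cell surface, at 3.45 and 3.19 (-0.11).

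Chemokines differed in both directions, with 9 of 20 higher and 11 lower and a median of -0.07. The ligands of CCR2 were higher, *Ccl7* from 0.517 to 1.23 (1.25, 1.14 to 1.37), *Ccl12* from 0.797 to 1.19 (0.58) and *Ccl2* from 1.01 to 1.44 (0.51). *Ccl8* went from 1.06 to 1.89 (0.83). Of these, macrophages led *Ccl8* and *Ccl12*, while mast cells, whose summed markers in macrophages had a ratio of 0.57, had the highest *Ccl2* and *Ccl7*. The neutrophil attractants were lower, *Cxcl3* from 7.27 to 3.16 (-1.20), *Cxcl2* from 71.3 to 46.7 (-0.61) and *Cxcl1* from 5.70 to 4.57 (-0.32). *Ccl24*, an attractant of eosinophils, went from 2.33 to 1.20 (-0.96) and *Ccl6* from 4.46 to 2.58 (-0.79). In T cells *Ccl7* was at 0.36 and *Cxcl3* at -0.75. The median of the list was 0.06 when UMIs were summed over cells and -0.32 in macrophages with at least 2 markers.

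Cytokines had a median near that of all genes, -0.09 beside -0.06 (0.04 when UMIs were summed over cells), with 12 of 18 lower. *Il1b* was nearly level at 24.7 and 23.2 (-0.09, -0.11 to -0.07), *Il1rn*, its receptor antagonist, went from 7.73 to 5.44 (-0.51), *Il6* from 0.668 to 0.401 (-0.74) and *Il10*, an anti-inflammatory cytokine, from 0.441 to 0.589 (0.42). Neutrophils differed from macrophages in *Il1b*, with a ratio of 0.84. Among growth factors (7 higher, 6 lower, median of 0.10, but -0.12 when summed), *Nrg1*, a ligand of ERBB receptors, went from 2.73 to 4.14 (0.60), *Pdgfc* from 0.319 to 0.463 (0.54) and *Vegfa*, which drives vessel growth, from 3.46 to 2.65 (-0.39).

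The 4 identity genes, which are the fixed markers, had a median of 0.24. The marker lists of other types had medians of 0.04 for T cells (5 genes), 1.62 for B and plasma cells (2), -0.15 for neutrophils (8), 0.28 for dendritic cells (3), 0.51 for mast cells (7), -0.21 for epithelial cells (10), -0.31 for endothelial cells (1) and -4.80 for erythroid cells (4). The remaining lists of macrophage functions had medians from -0.15 to 0.17. The interferon response was at 0.11, with *Gbp2*, a guanylate-binding protein (0.401 to 0.580, 0.53), higher and *Ifitm3* (11.4 to 7.85, -0.53) lower. Lineage factors were at 0.17, chemokine receptors at 0.12, Fc receptors at -0.04 and scavenger receptors at 0.05 (-0.03 with at least 2 markers). C1q and complement were at -0.10, checkpoint ligands at -0.06, immediate-early genes at -0.04 and cell division at 0.00, but summed UMIs gave 0.02, 0.23, 0.16 and -0.66. *Mki67* (0.528 and 0.542) and *Top2a* (0.558 and 0.572), of dividing cells, each had a log2 ratio of 0.04. *Cd274*, the ligand PD-L1, stood at 2.29 and 2.53 (0.14). Enzymes of eicosanoid synthesis had a median of -0.15, which turned to 0.18 when summed, with *Hpgds* at 0.66, *Pla2g7* at -0.67 and *Ptgs2*, cyclooxygenase 2, at 10.0 and 8.18 (-0.30).

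By molecules alone, *Malat1* (179 and 155), *Fth1*, *Apoe* and *Tmsb4x* (115 and 113) had the highest levels in macrophages once immunoglobulin, mitochondrial and ribosomal RNA-like genes were set aside. Of these only *Apoe* was led by macrophages. *Malat1*, a nuclear noncoding RNA, reached 0.441 and 0.467 of its level in epithelial cells and *Tmsb4x*, thymosin beta 4, 0.433 and 0.467 of that in dendritic cells.

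To compare cells with each other, each macrophage was thinned to 1000 UMIs, which left out 15 and 6 shallower cells. The variance over the mean (the Fano factor, which is near 1 for pure counting) was taken for 3095 genes with a thinned mean of at least 0.05. Its median was 1.08 in each library. It was at least 2 in both libraries for 82 genes, and 38 of the 50 most variable genes of each library were in both sets. By the smaller of the libraries' values *Apoe* had the largest factor, 24.7 and 14.9, so that the 10% of macrophages with the most UMIs of it held 44.0% and 37.2% of its UMIs. *Spp1*, which exceeded it in Mir34a_Mye_KO, was at 11.7 and 17.1, and its top 10% held 82.5% and 91.3%. *S100a9* (19.5 and 14.3) and *S100a8* (10.5 and 13.1) encode the calprotectin chains of neutrophils and monocytes, and neutrophils had the highest levels of both, with the macrophage levels under 1% of theirs. *Cxcl2* (17.1 and 14.1), *Fth1* (15.5 and 12.2), *Ccl24* (8.75 and 13.5), *Cd74* (8.89 and 7.89), *Saa3* (7.98 and 6.61) and *Slpi* (13.5 and 6.51) followed. *Csf1r* was at 1.19 and 1.29, *Tyrobp* at 1.58 and 1.53 and *C1qa* at 2.72 and 2.54, all above the median of 1.08. The factor can grow with the mean, and the means of these genes differed, so their order is a description.

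**Figure D5:**
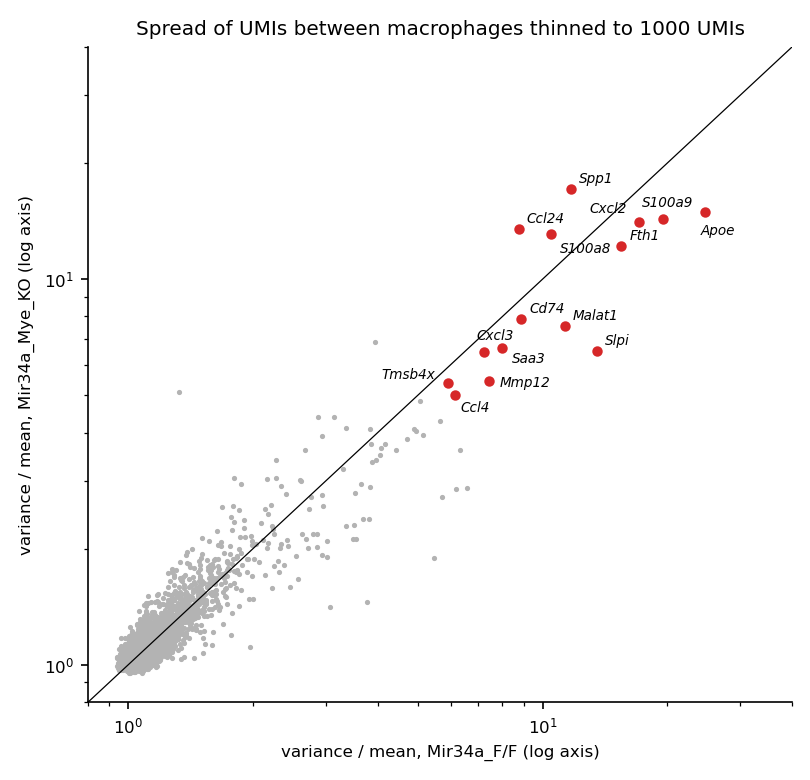
Variance over mean of UMIs between macrophages thinned to 1000 UMIs, in Mir34a_Mye_KO against Mir34a_F/F on log axes, for 3095 genes, with the 15 genes of the largest smaller value in red and a line at equal values. Most genes lie near 1, *Apoe* at 24.7 and 14.9 and *Spp1* at 11.7 and 17.1.

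The thinned cells also gave the share of macrophages with a UMI of single genes. The intervals of these shares count cells of 1 library each and do not cover the spread between mice. The same thinning of T cells, whose median depths before it were 3598 and 8051 UMIs against 7317 and 11262 in macrophages, gave a background. *C1qa* was seen in 47.8% and 56.6% of macrophages (7.89% and 6.93% of T cells), and without thinning in 64.5% and 79.5%. *Mrc1* was seen in 13.3% (95% interval, 11.9 to 14.8) and 20.3% (18.8 to 21.9) against 1.30% and 1.06% of T cells, and without thinning in 37.7% and 47.0%. *Arg1* was seen in 21.4% (19.7 to 23.2) and 9.63% (8.53 to 10.8) against 2.26% and 0.946%, and without thinning in 41.7% and 26.7%. *Spp1* was seen in 23.4% (21.7 to 25.3) and 13% (11.8 to 14.4) against 10.2% and 4.24%. *Nos2*, in 3.33% and 2.85%, stood at or little above the 3.13% and 1.82% of T cells. *H2-Aa* was seen in 45.2% and 64.6%, against 11% and 11.9%.

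Pairs of genes were then compared within the same thinned cells. Of macrophages with *Ly6c2*, 31.1% and 36.2% also had *Chil3*, against 8.41% and 5.23% of those without it. Of those with *C1qa*, 2.57% and 1.36% had *Ly6c2*, against 13.6% and 14.9% of those without. Thinned T cells had *Ly6c2* in 1.66% and 2.16%. Its share in macrophages with *C1qa* was thus above that of T cells in Mir34a_F/F and below it in Mir34a_Mye_KO. The part of the T cells' own transcripts in their share was not tested. *Chil3* was in 0.566% and 0.189% of T cells and *Pf4* in 3.06% and 1.36%. *Mrc1* and *Chil3* met in 2 cells of each library, 0.687% and 0.380% of the cells with *Mrc1*, against 11.8% and 9.28% of those without. Cells with *Mrc1* more often had *H2-Aa*, 74.9% and 86.0% against 40.7% and 59.2%, and *Pf4*, 35.4% and 34.3% against 16.8% and 13.9%. Cells with *Arg1* more often had *Spp1*, 43.3% and 30.8% against 18.0% and 11.1%, and less often *H2-Aa*, 31.8% and 47.2% against 48.9% and 66.5%. *Arg1* and *Mrc1* were seen together in 49 and 36 cells, so that 16.8% and 6.83% of cells with *Mrc1* had *Arg1*, against 22.1% and 10.3% of those without. These shares describe cells of 1 library each and carry no test.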

How the data were processed

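Tumor cells were sequenced with the 10x Genomics 3′ v3.1 chemistry. The authors aligned the reads with Cell Ranger 7.2.0 to the mm10 transcriptome, removed doublets with Scrublet, and deposited a table in which each value is the natural log of 1 plus the UMI count per 10000 UMIs of the cell (Seurat LogNormalize), with the cell type of each barcode. The deposited natural log values were turned back to UMIs. All of the 96847573 values above 0 came out whole, the largest deviation being 1.5e-10. The files gave 32291 features and 3261 without a UMI. Doublets were not called again.

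Levels were means over cells, and led genes had a level of at least 0.1 in both libraries. With 1 library per genotype no test was run. Intervals were exact Poisson for UMI sums, exact binomial for shares, and a weighted Poisson counting interval for log2 ratios. On simulated data for the macrophage ratios (1500 genes), that interval held the true ratio in 95.1%. The simulated counts were Poisson with 1 rate per gene and library, scaled to each cell's UMIs, so this share follows from the setting. Spread between cells was not simulated, while *Apoe* had Fano factors of 24.7 and 14.9, so the intervals do not cover it. All 200 genes changed in the simulation were told apart from no difference. Macrophages held 19470961 and 33225004 UMIs in all. Settings tried beside these pooled the UMIs of a type before scaling, thinned each cell to 1000 UMIs, kept cells of under 10% mitochondrial RNA and 500 or more expressed mRNAs, kept macrophages with at least 2 of 4 markers, or used other totals, a minimum of 0.5, a pseudocount of 0.1 or other comparison types.

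Named genes were, by rule, list members with the highest level or the largest ratio; the 15 genes with the largest margin over the next type and a level of at least 0.5, with the first 15 that the study's text does not name; the 10 largest ratios in each direction among led genes that at least 25% of macrophages showed; the 15 largest Fano factors; and the 12 highest levels. Immunoglobulin, mitochondrial and ribosomal RNA-like genes, with *Cdk8* and *Lars2*, were left out. Further list members and other genes were named after their values were seen. The members and the 31 lists were chosen with earlier results of these data known. *Clec7a* and *Mx1* were not analysed here, and some genes that meet the naming rule are not reported here. Python 3.11.15, numpy 2.4.6, scipy 1.17.1, pandas 2.3.3 and matplotlib 3.10.9 were used.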

Additional observations from a re-analysis of the deposited data

Results flagged for a closer look

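*Mmp9* had opposite signs in macrophages and neutrophils. Its log2 ratio of Mir34a_Mye_KO over Mir34a_F/F was -0.62 in macrophages (95% counting interval, -0.72 to -0.53) and 0.53 in neutrophils (0.45 to 0.62), where the level went from 3.74 (1985 UMIs) to 5.41 (5302 UMIs). Each sign rests on 1 library per genotype, and the difference between the types was not tested. Among the genes of the lists and those named for their lead or their ratio, with at least 100 UMIs in the neutrophils of each library, *Mmp9* was the 1 gene with ratios of at least 0.5 in opposite directions and both intervals off 0. Other genes were not screened.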

How the results depend on the processing

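The count of 90 genes led by macrophages was 153 against the 7 types with at least 100 cells in each library and 979 against all other cells pooled. It was 61 to 125 under the remaining alternatives, among them 125 with UMIs summed over cells and 74 with every cell thinned to 1000 UMIs. The 35 genes at least 2-fold higher in Mir34a_Mye_KO became 54 with summed UMIs, 83 when thinned, 54 with totals that leave out immunoglobulin, mitochondrial and ribosomal RNA-like genes, and 15 with a minimum of 0.5 or with a pseudocount of 0.1. The 63 lower became 153 when thinned and 22 with that minimum or pseudocount. Of the 90 led genes, the 1 that was 2-fold higher became 0 when thinned, with the minimum or with the pseudocount, and 2 with the other totals. The 2 that were 2-fold lower became 4 with summed UMIs and 1 with the minimum. Totals without those genes moved the median log2 ratio of all genes from -0.06 to 0.05.

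Among macrophages with at least 2 markers, the ratios of *C1qb*, *C1qc* and *Ms4a7* turned to -0.01, -0.10 and -0.09. *Tmsb4x* turned to 0.08 with the other totals. Of 43 genes named by margin, ratio or level, 36 kept their sign but left their main counting interval with summed UMIs. So did 31 with the other totals, 29 with at least 2 markers and 20 when thinned. With the limits on mitochondrial RNA and expressed mRNAs it was 14. With summed UMIs, *Cxcl2* went from -0.61 to -0.22, *Csf1r* from 0.18 to 0.43 and *Cacna1a* from 0.46 to 0.86. The counting intervals thus do not cover the choice of setting. The medians of the lists were added as alternatives after seeing the data. That of eicosanoid enzymes turned to 0.18 summed, 0.08 thinned and 0.10 with at least 2 markers, and that of neutrophil markers to 0.23 summed. Cell division was -0.66 when summed. MHC class II presentation ranged from 0.48 to 0.81, lipid handling from -0.47 to -0.19 and glycolysis and hypoxia from -0.36 to -0.23. The cause of these shifts was not tested. No paired analysis was possible because each genotype had 1 library.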
